A study of Mus musculus with 6 samples.

Results

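The PGC-1 coactivators, the oestrogen-related receptors (ERRs) and the factors they work with set how much mitochondrial RNA and protein a muscle fibre makes. PGC-1alpha (Ppargc1a) and PGC-1beta (Ppargc1b) do not bind DNA themselves but are recruited by nuclear receptors, among them ERRalpha, ERRbeta and ERRgamma (Esrra, Esrrb, Esrrg), and by the nuclear respiratory factors NRF-1 (Nrf1) and GABP, whose DNA-binding subunit is Gabpa. These factors act on genes of the respiratory chain and on Tfam, the protein that packages mitochondrial DNA and starts its transcription. Nrip1 (RIP140) is a corepressor that opposes PGC-1alpha at many of the same genes, and Sirt1 is a deacetylase for which PGC-1alpha is a substrate. In skeletal muscle this circuit is known for its response to exercise and fasting and for its higher activity in oxidative fibres.

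The 10 genes Ppargc1a, Ppargc1b, Esrra, Esrrb, Esrrg, Nrf1, Gabpa, Tfam, Nrip1 and Sirt1 were taken by gene symbol, with every probe that carries one of these symbols. They are 10 of 17711 gene symbols and 19 of 46611 probes used here from an Illumina mouse BeadArray, which reads each transcript with beads that carry a short probe. RNA came from the quadriceps femoris, a thigh muscle, of C57BL/6 mice, with 3 arrays labelled wild type and 3 labelled transgenic. The transgenic mice carried RORalpha1delDE, a human RORalpha1 that lacks the E region and part of the hinge of this nuclear receptor, under the human skeletal alpha-actin promoter, which is active in skeletal muscle, and the wild-type mice did not. Both groups ate a diet with 4.6% fat under 12 h of light a day, were fasted overnight and were killed at 9 in the morning. Age, sex, the number of transgenic lines and whether an array held 1 mouse or a pool are not given in the labels.

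The number of detected probes ran from 13979 to 14887 over the arrays. A probe was tested, and is called measured, where 3 or more of the 6 arrays detected it (detection p-value under 0.05), which left 14420 probes. Acta1, the skeletal muscle actin, was at 15.60 and 15.65 in the 2 groups, close to the brightest signals, and each of the 11 skeletal muscle markers measured was detected on every array. The tested Rora probe differed by 0.20 ± 0.22 (log2, SE), and the other Rora probe was detected on no array. Since the place of these probes in the transcript is not known here, they do not check the transgene. Where 2 bright probes read 1 gene, their differences between arrays 1 and 2 of a group were almost unrelated (r = 0.0341 in wild type and 0.0316 in transgenic muscle, across 525 genes, which are not independent replicates). For differences between replicate 3 and array 1 or 2 of its group, r was 0.70 to 0.76. Of 5236 bright probes, 0 differed more than 2-fold between arrays 1 and 2, against 55 to 101 in the pairs with replicate 3. Arrays 1 and 2 were therefore averaged, which left 2 samples per group. Slow-fibre markers were low on transgenic replicate 3. The summed normalised intensity of 8 measured markers was 82098 to 90694 on wild-type arrays, 119045 and 123248 on transgenic arrays 1 and 2, and 15271 on transgenic replicate 3. Levels are normalised log2 intensities throughout, and a level of 1 probe is not set against that of another. Ucp1, which defines brown adipocytes, was detected on all wild-type and no transgenic arrays. The 6 arrays lay on 1 chip in the order of the groups, so chip position and genotype cannot be told apart.

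No measured probe of the 10 genes passed the test for a difference between transgenic and wild-type muscle. Of the 19 probes, 11 passed the filter and stood for 9 genes, and 0 of these 11 had an adjusted p under 0.05 by limma, against 0.00693% of all tested probes. With an unadjusted p under 0.05 there were also 0 of 11, against 7.64% of all tested probes (3.49% higher and 4.15% lower). With the 6 arrays taken as separate samples there were again 0 of 11 after adjustment (0.374% of all probes, 0.139% higher and 0.236% lower) and 1 of 11, that of Tfam, before it (15% of all probes, 7.49% higher and 7.55% lower). Differences ran from -0.64 for Esrrg to 0.35 for Tfam on the log2 scale, with 6 probes above 0 and 5 below, and their median of 0.011 stood beside a median of 0.018 over all tested probes. After averaging, 3 of 11 probes had both transgenic samples above both wild-type samples and 0 had them below, against 21.6% and 18.1% of all tested probes (39.6% either way). The number of samples limits the precision: the smallest p that an exact permutation test allows is 0.333 for 2 against 2 samples and 0.1 for 3 against 3 arrays. The 95% confidence intervals of the 11 probes reached down to a 3.09-fold lower level (Esrrg) and up to a 1.80-fold higher level (Ppargc1a). In whole muscle, fewer cells of a type and less RNA per cell cannot be told apart.

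**Figure D1:**
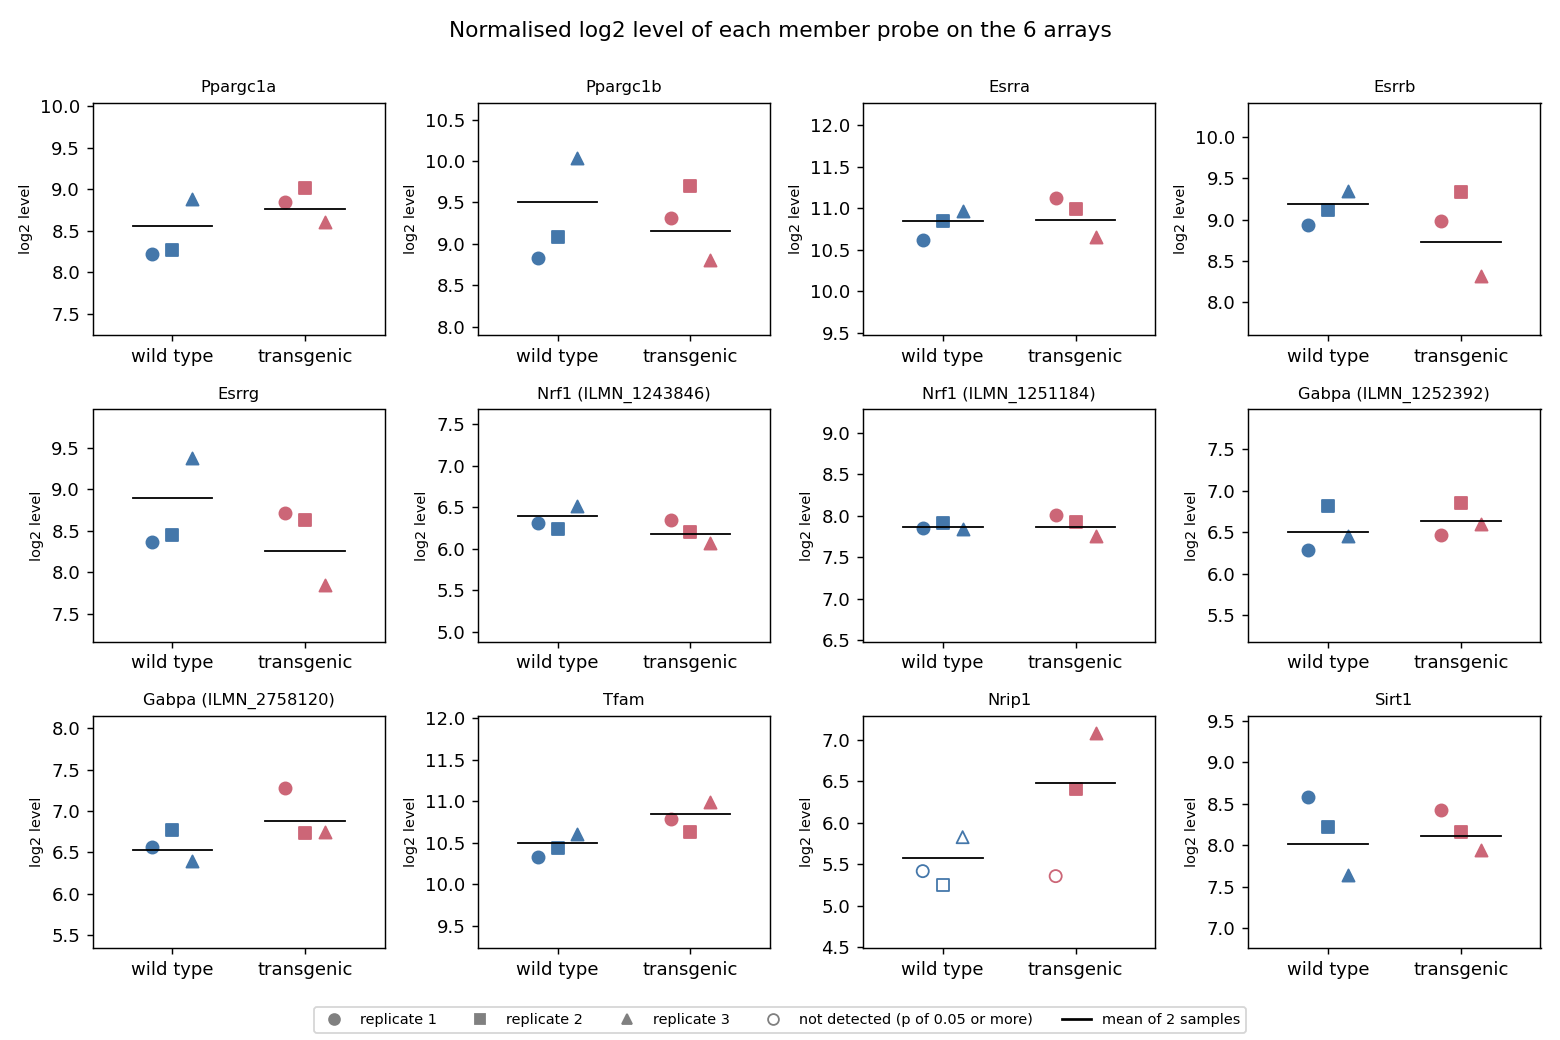
Normalised log2 level (vertical axes, each spanning the same width) of the 11 tested probes and of the Nrip1 probe on 3 wild-type (blue) and 3 transgenic (red) arrays. Symbols give the replicate number, open symbols are arrays on which the probe was not detected, and black lines are means of the 2 samples per group. The arrays of the 2 groups overlap for every tested probe except that of Tfam.

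The coactivators were taken first. Ppargc1a read 8.22, 8.27 and 8.88 (log2) on the 3 wild-type arrays and 8.84, 9.01 and 8.61 on the 3 transgenic arrays. Wild-type arrays 1 and 2 were the lowest of the 6, while wild-type replicate 3 lay among the transgenic arrays, so the groups overlapped. The group means were 8.56 ± 0.45 and 8.77 ± 0.22 (SD, n = 2 each). The difference was 0.21 ± 0.26 (SE; 95% interval -0.44 to 0.85; limma adjusted p = 0.857). Leaving out wild-type replicate 3 gave 0.52 (limma adjusted p = 0.595), and leaving out transgenic replicate 3 gave 0.36. The other probe of Ppargc1a was not detected on any array.

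Ppargc1b, the relative that shares many partners with PGC-1alpha, varied more within the groups than between them. It read 8.83, 9.08 and 10.04 on the wild-type arrays and 9.32, 9.70 and 8.81 on the transgenic arrays. Wild-type replicate 3 was the highest of the 6 and transgenic replicate 3 the lowest. The difference was -0.34 ± 0.41 (95% interval -1.34 to 0.66; adjusted p = 0.847). Its sign rested on these arrays, since leaving out wild-type replicate 3 turned it to 0.20 and leaving out transgenic replicate 3 turned it to 0.0089.

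The receptors came next. Esrra, the most studied ERR of muscle and an inducer of respiratory chain genes, read 10.61, 10.84 and 10.97 on the wild-type arrays and 11.13, 11.00 and 10.66 on the transgenic arrays. The 2 groups spanned nearly the same range. The difference was 0.011 ± 0.22 (95% interval -0.52 to 0.54; adjusted p = 0.992), an interval that reaches from a 1.43-fold lower to a 1.45-fold higher level.

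Esrrg, an ERR known for its abundance in oxidative and slow muscle, had the largest difference of the 11 probes. The detected probe read 8.36, 8.45 and 9.38 on the wild-type arrays and 8.71, 8.63 and 7.84 on the transgenic arrays. As for Ppargc1b, wild-type replicate 3 was the highest and transgenic replicate 3 the lowest array, and transgenic arrays 1 and 2 lay inside the wild-type range. Group means were 8.89 ± 0.69 and 8.25 ± 0.58 (SD, n = 2 each), and the difference was -0.64 ± 0.41 (95% interval -1.63 to 0.35; adjusted p = 0.73). Leaving out wild-type replicate 3 reduced it to -0.15, and leaving out transgenic replicate 3 to -0.22. The other 2 Esrrg probes were not detected on any array.

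Esrrb, an ERR best known from embryonic stem cells, read 8.94, 9.12 and 9.34 on the wild-type arrays and 8.98, 9.33 and 8.31 on the transgenic arrays. Only transgenic replicate 3 lay outside the wild-type range. The difference was -0.45 ± 0.31 (95% interval -1.20 to 0.30; adjusted p = 0.742), and without transgenic replicate 3 it was -0.030. With median centring in place of quantile normalisation both transgenic samples lay below both wild-type samples, as they did at 23.1% of all tested probes under that scaling, and the adjusted p was then 0.814. The second Esrrb probe was detected on 1 wild-type array and on no transgenic array and was not tested.

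The nuclear respiratory factors were read by 2 tested probes each. The brighter Nrf1 probe, ILMN_1251184, spanned the narrowest range of the 11 probes and read 7.85, 7.92 and 7.84 on the wild-type arrays and 8.01, 7.92 and 7.76 on the transgenic arrays. Its difference was -0.00072 ± 0.18 (95% interval -0.44 to 0.44; adjusted p = 0.999). The dimmer Nrf1 probe, ILMN_1243846, read 6.31, 6.23 and 6.51 on the wild-type arrays and 6.35, 6.20 and 6.07 on the transgenic arrays, with a difference of -0.22 ± 0.19 (adjusted p = 0.788). The dimmer probe was near background, with raw signals of 192.7 to 238, and its difference was -0.081 without background correction and -0.075 on the deposited log2 values. Leaving out wild-type replicate 3 gave -0.098, and leaving out transgenic replicate 3 gave -0.12. The groups overlapped at both probes, and 9.76% of all tested probes had their 3 transgenic arrays below the 3 wild-type arrays. With median centring the dimmer probe did so too, as did 13.6% of all tested probes under that scaling, and its difference was then -0.29 (adjusted p = 0.817).

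Both tested probes of Gabpa were dim, with raw signals of 218.9 to 296.4 where the array medians were 154.5 to 174.9. ILMN_2758120 read 6.56, 6.77 and 6.40 on the wild-type arrays and 7.28, 6.73 and 6.74 on the transgenic arrays. The single arrays overlapped, but both transgenic samples lay above both wild-type samples after averaging. The difference was 0.34 ± 0.20 (95% interval -0.15 to 0.83; adjusted p = 0.716). ILMN_1252392 read 6.28, 6.81 and 6.45 on the wild-type arrays and 6.47, 6.85 and 6.60 on the transgenic arrays, with a difference of 0.13 ± 0.17 (adjusted p = 0.866). Its arrays numbered 1 and 2 differed by more than the groups did. With median centring the samples of the 2 groups overlapped for both Gabpa probes. The size also moved with the background correction, since without it the differences were 0.15 and 0.050. The remaining 2 Gabpa probes were not detected on any array.

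Tfam was the one member of the 10 whose tested probe had all 3 transgenic arrays above the 3 wild-type arrays. It read 10.33, 10.44 and 10.61 on the wild-type arrays and 10.79, 10.62 and 10.99 on the transgenic arrays. The nearest arrays, wild-type replicate 3 and transgenic replicate 2, were almost level. Such separation was seen upward at 1 of the 11 probes and at 12.1% of all tested probes (21.8% in either direction), a share close to that of the members, and at 6.25% of all tested probes with median centring. Group means were 10.50 ± 0.16 and 10.85 ± 0.20 (SD, n = 2 each). The difference was 0.35 ± 0.20 (95% interval -0.13 to 0.83; adjusted p = 0.71), and 0.34 ± 0.15 with 6 separate arrays (limma unadjusted p = 0.0488, adjusted p = 0.33). The 3 arrays of each group stayed apart with all 4 other scalings tried, but raw signals did not: these were 1621, 1672 and 1602 in wild type and 1883, 1655 and 1937 in transgenic muscle. The difference fell to 0.21 when transgenic replicate 3 was left out and rose to 0.46 when wild-type replicate 3 was. The other Tfam probe was not detected on any array.

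Because Tfam is known in mammals as a target of both nuclear respiratory factors, the promoter of Tfam is shown, in the 5′ to 3′ direction of the gene. The window of 300 bases around the gene's start comes from RefSeq on assembly GRCm38.p6, chr10:71237995-71238294, minus strand. Capitals mark the ETS element CCGGAAGT, the kind of element that GABP binds, whose first base is at position -47 from the start site.
Tfam promoter: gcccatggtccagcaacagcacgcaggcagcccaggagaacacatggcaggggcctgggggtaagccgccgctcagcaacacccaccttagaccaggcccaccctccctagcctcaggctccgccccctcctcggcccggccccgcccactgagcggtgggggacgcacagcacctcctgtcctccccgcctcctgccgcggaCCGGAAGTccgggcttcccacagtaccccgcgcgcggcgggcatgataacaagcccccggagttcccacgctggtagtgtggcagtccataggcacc
This was the single match among 15 promoter windows of 9 of the genes, searched on both strands, while 3.89% of all 32851 windows hold the element. Windows of Ppargc1b were not used here. The NRF-1 element GCGCATGCG (1.75% of all windows), the ERR element TCAAGGTCA (0.423%), the nuclear receptor half-site AGGTCA, which the ERR element contains (16.3%), and the cyclic AMP response element TGACGTCA (1.79%) had 0 matches in the 15 windows. A match describes the letters only, and no match says only that these letters are absent from the window.

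Nrip1, the corepressor, was at the limit of detection and was not among the tested probes. Its raw signals were 184, 170 and 196.8 on the wild-type arrays, none of them detected, and 174.1, 221.8 and 253.8 on the transgenic arrays. Transgenic replicates 2 and 3 were detected and transgenic replicate 1 was not, with detection p-values of 0.0156, 0.00561 and 0.217 from the array software. With the wild-type arrays counted at no less than their lowest detected probe, the measured transgenic mean was 1.61-fold higher. Measured means were 5.58 in wild type and 6.48 ± 0.85 in transgenic muscle (log2; SD, n = 2). The 1.61-fold value leaves the spread of the transgenic samples out of account, so it is not a lower limit. It rested on transgenic replicate 3, without which it was 1.06-fold, an alternative chosen after seeing the data. Tested with all 46611 probes, Nrip1 did not pass (limma adjusted p = 0.817). Transgenic arrays 1 and 2, the averaged pair, fell on opposite sides of the detection limit for this probe.

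Sirt1 read 8.58, 8.22 and 7.64 on the wild-type arrays and 8.43, 8.15 and 7.94 on the transgenic arrays. The transgenic arrays lay inside the wild-type range. The difference was 0.10 ± 0.29 (95% interval -0.62 to 0.81; adjusted p = 0.95), with wild-type replicate 3 the lowest array. Its sign turned to -0.28 when wild-type replicate 3 was left out, and it rose to 0.27 when transgenic replicate 3 was.

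**Figure D2:**
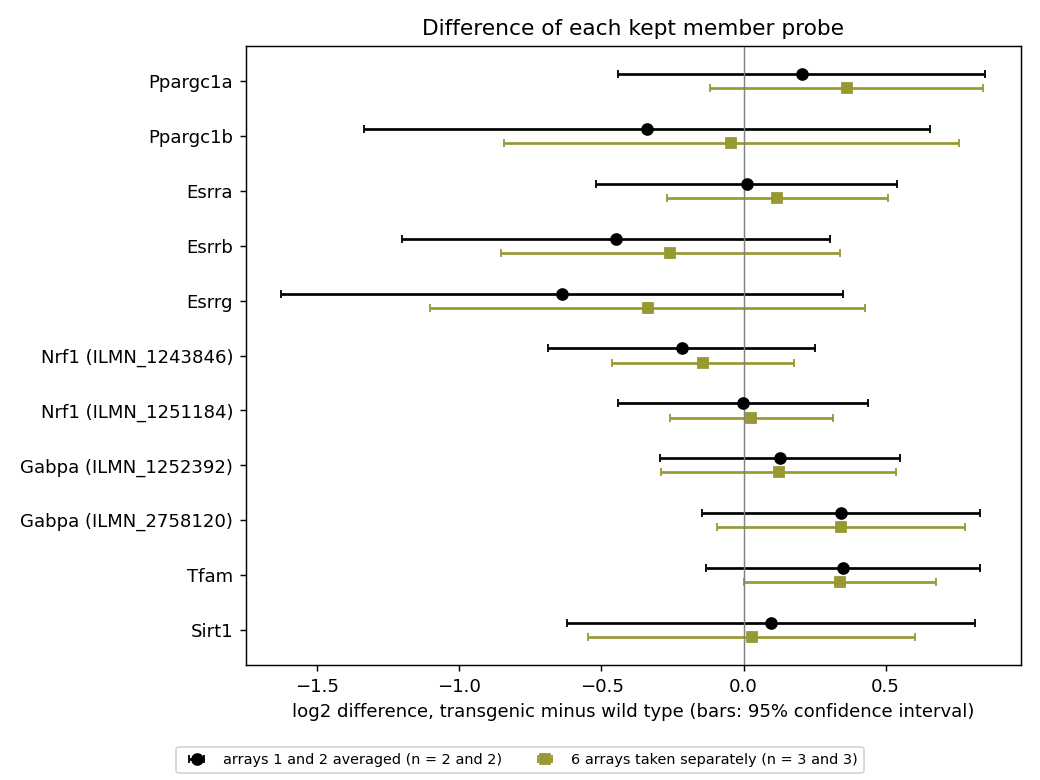
Log2 difference between transgenic and wild-type muscle for the 11 tested probes, with arrays 1 and 2 averaged (black circles) or with 6 arrays taken separately (olive squares). Bars are 95% confidence intervals. All bars cross 0 except that of Tfam with 6 separate arrays, which runs from 0.0024 to 0.68.

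At 8 of the 11 probes, all but those of Tfam and Gabpa, the gap between the samples of at least 1 group was wider than the difference between the groups, as it was at 73.6% of all tested probes. Wild-type replicate 3 exceeded the mean of wild-type arrays 1 and 2 by 1.08 for Ppargc1b, a wider gap than at 98.1% of tested probes, by 0.98 for Esrrg (97.2%) and by 0.63 for Ppargc1a (89.2%). Sirt1 went the other way, with a gap of -0.76 (93.4%). Transgenic replicate 3 was below transgenic arrays 1 and 2 by a log2 difference of -0.84 for Esrrb (wider than at 96.6% of probes), -0.83 for Esrrg (96.4%), -0.70 for Ppargc1b (93.8%) and -0.40 for Esrra (78.7%). Tfam was the exception, at 0.28 above. In all, 10 of the 11 probes were lower on transgenic replicate 3 than on transgenic arrays 1 and 2, as were 49.1% of all tested probes, or 58.9% with median centring. Transgenic replicate 3 was the lowest of the 4 samples at 6 of 11 probes, those of Ppargc1b, Esrra, Esrrb, Esrrg and both of Nrf1, against 27.0% of all tested probes, or 35.1% with median centring. These shares describe 4 samples and genes chosen for their shared pathway, and no test was made of them.

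Markers of fibre type and of other cells moved in the same samples, and their part in these gaps was not tested. Transgenic replicate 3 was the lowest of the 4 samples at 7 of 8 slow-fibre markers measured of 10 listed, all but Csrp3, with a median gap of -4.57 to transgenic arrays 1 and 2, whereas the gap between the wild-type samples had a median of -0.11. Tnni1, the slow troponin I, read 5.40 on transgenic replicate 3, where it was not detected, and 11.01 on transgenic arrays 1 and 2. Myh7 and Myh7b were not analysed here. The macrophage markers, 6 of 10 measured, summed to 801 to 1072 on wild-type arrays and to 859, 960 and 1792 on transgenic arrays, the highest being replicate 3. The endothelial markers, 7 of 7 measured, summed to 2985 to 3691 in wild type and 3282 to 3459 in transgenic muscle.

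Markers of fat cells also differed between the samples, and their part was not tested. Of 9 brown adipocyte markers 6 were measured, Elovl3 was detected on no array, and Ucp1 read 12.19 and 12.72 in the wild-type samples and was not detected in the transgenic ones. Cidea, a lipid droplet protein of brown fat, read 10.85 and 11.83 in wild type and 7.33 and 7.27 in transgenic muscle (difference -4.04 ± 0.33; limma adjusted p = 0.0833, and 0.00436 with 6 separate arrays). Prdm16, a regulator of brown fat identity, read 6.50 and 6.98 in wild type and 5.95 and 6.18 in transgenic muscle (difference -0.67 ± 0.23; adjusted p = 0.638). The summed intensity of the 6 markers was 60138 to 63552 in wild type and 51883 to 63605 in transgenic muscle, but most of it came from Cox8b and Cpt1b, which muscle also expresses. Within the groups, wild-type replicate 3 was the highest of the 4 samples at 4 of the 6 markers, with a median gap of 0.28. Transgenic replicate 3 was the lowest at 5 of the 6, with a median gap of -0.24. Of those 5, Ucp1 was detected on no transgenic array and Zic1 on 1, and Cox8b and Cpt1b were also among them. Prdm16 went the other way, at 6.18 on transgenic replicate 3 and 5.95 on transgenic arrays 1 and 2. General adipocyte markers, 4 of 9 measured, summed to 3781 to 5772 on wild-type and to 1246, 1257 and 3592 on transgenic arrays, with Fabp4, Lep and Retn detected on no array. Replicate 3 had the highest sum of these general markers in both groups. Pparg, an adipocyte receptor, read 8.11 and 8.63 in the wild-type samples and 7.20 and 7.16 in the transgenic samples (limma adjusted p = 0.445). On transgenic arrays 1 and 2 and on transgenic replicate 3, Cidec read 8.26 and 10.18, Adipoq 9.23 and 11.05, and Lipe 7.62 and 7.34. In the wild-type samples Cidec read 10.73 and 10.62, Adipoq 10.74 and 11.79, and Lipe 7.62 and 7.97.

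**Figure D3:**
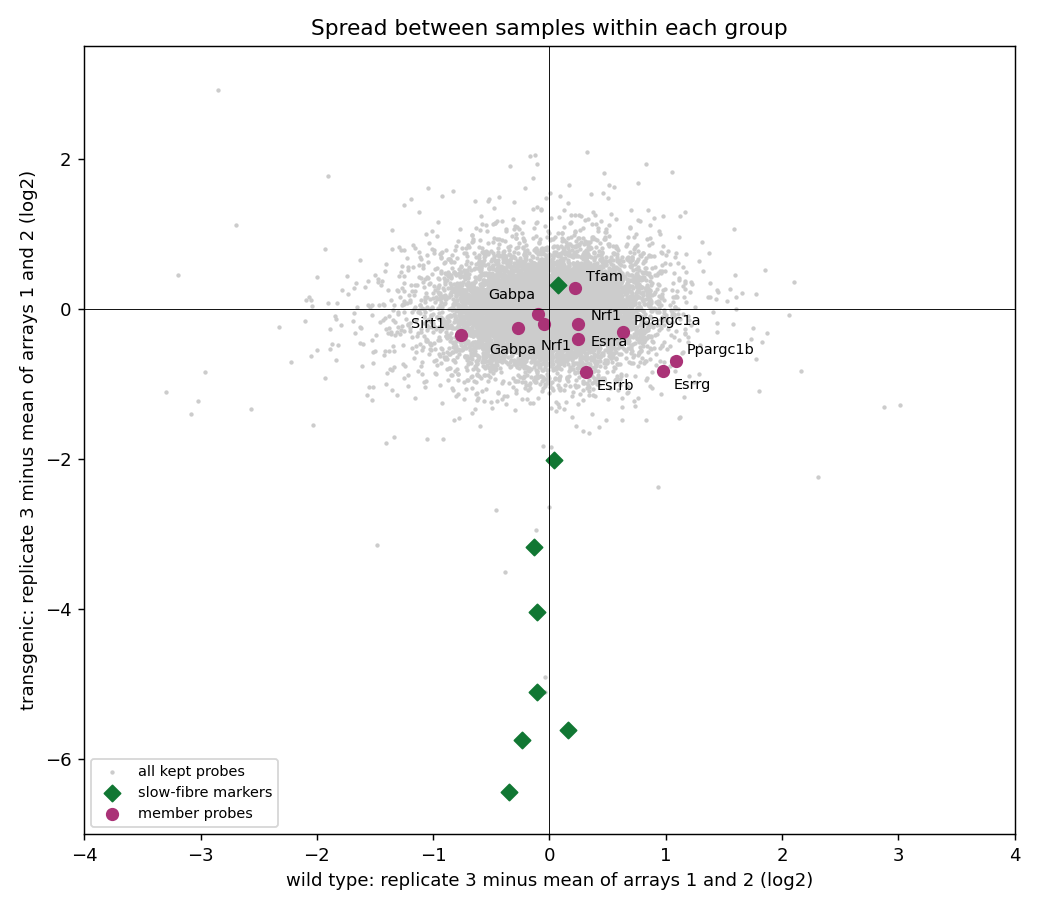
Gap between replicate 3 and the mean of arrays 1 and 2 in wild-type (horizontal axis) and transgenic muscle (vertical axis), in log2 units, for all tested probes (grey), the 11 member probes (purple) and 8 slow-fibre markers (green diamonds). Ppargc1b and Esrrg lie to the lower right, at 1.08 and -0.70 and at 0.98 and -0.83, while 7 of the 8 slow-fibre markers lie far down near a wild-type gap of 0. The axes leave out 1 probe.

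The genes around the 10 members showed no call either. Unadjusted, 323 of the 8397 measured genes were higher and 275 lower at p under 0.05, and in the lists these were 2 higher (Hdac4 and Camk2g) and 1 lower (Tomm40). In each of the 6 lists below, 0 genes were higher and 0 were lower at an adjusted p under 0.05, both with averaged samples and with 6 separate arrays, and the median over all measured genes was 0.044, with 4825 genes above 0 and 3572 below. Over the alternatives, the median of the genes upstream of Ppargc1a stayed above 0. Those of the other 5 lists took both signs, so no direction is given for them. For the PGC-1 partner coregulators and for mitochondrial dynamics, only median centring gave a median below 0 (-0.022 and -0.0028). That scaling also moved the median of all tested probes from 0.018 to -0.059.

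Of 20 further PGC-1 relatives and partner coregulators, 13 were measured, with 9 above 0, 4 below and a median of 0.061. Hdac4, a class II histone deacetylase that restrains MEF2 factors, read 10.13 and 10.41 in the wild-type samples and 10.76 and 10.83 in the transgenic samples, a difference of 0.53 ± 0.19 (unadjusted p = 0.031, adjusted p = 0.645). The steroid receptor coactivators Ncoa2 and Ncoa1 differed by 0.32 ± 0.23 and 0.22 ± 0.17.

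Of 22 genes that act upstream of Ppargc1a, 17 were measured, 12 of them above 0 and 5 below, with a median of 0.14 that ran from 0.075 to 0.23 over the alternatives. Camk2g, a calcium/calmodulin-dependent kinase, read 11.07 and 11.35 in wild type and 11.58 and 11.90 in transgenic muscle, a difference of 0.53 ± 0.21 (unadjusted p = 0.0435, adjusted p = 0.647). Mapk14, the p38alpha kinase that phosphorylates PGC-1alpha, read 11.83 and 11.76 in wild type and 12.27 and 12.14 in transgenic muscle, and differed by 0.41 ± 0.17 (adjusted p = 0.657). Ppp3r1, the regulatory subunit of the phosphatase calcineurin, differed by 0.36 ± 0.19 (adjusted p = 0.699). In the whole list, 6 of the 17 genes had all 3 transgenic arrays above all 3 wild-type arrays and 0 had them below, beside 14.2% and 8.22% of all measured genes. The upward share was 35.3% here, 30.8% for mitochondrial dynamics, import and turnover and 25% for mitochondrial DNA transcription and replication. It was 9.4% for the PGC-1 and ERR targets, 7.7% for the partner coregulators and 0% for the other sirtuins. These shares were counted under the main scaling only, and no test was made of them.

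Of 16 genes of mitochondrial DNA transcription and replication, the machinery Tfam belongs to, 12 were measured, 6 above 0 and 6 below, with a median of 0.0074. Twnk, the mitochondrial DNA helicase, differed by 0.27 ± 0.17, Polg, the catalytic subunit of the mitochondrial DNA polymerase, by 0.40 ± 0.26, and Ssbp1, which binds single-stranded mitochondrial DNA, by -0.24 ± 0.17 (adjusted p = 0.73, 0.734 and 0.751).

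The list of PGC-1 and ERR target genes, mostly enzymes of the respiratory chain, the citric acid cycle and fatty acid oxidation, had 32 of 38 genes measured, 19 above 0 and 13 below, with a median of 0.0064. Its differences ran from -0.54 to 0.42. Cd36, a fatty acid transporter detected on 2 wild-type and 1 transgenic array, differed by -0.54 ± 0.23 (adjusted p = 0.651). Slc25a4, the ADP/ATP carrier of muscle mitochondria, differed by 0.36 ± 0.19 and Ucp3, an uncoupling protein of muscle, by -0.44 ± 0.25 (adjusted p = 0.694 and 0.708). On transgenic replicate 3, 25 of the 32 genes were below transgenic arrays 1 and 2, as were 4074 of all 8397 genes, and the list's median gap was -0.077.

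Among 18 genes of mitochondrial dynamics, import and turnover, 13 were measured, 10 above 0 and 3 below, with a median of 0.054. Tomm40, the channel of the outer membrane import complex, read 6.88 and 6.83 in wild type and 6.40 and 6.28 in transgenic muscle, a difference of -0.52 ± 0.17 (unadjusted p = 0.0239, adjusted p = 0.638). Every array detected it, but at dim levels of 5.99 to 6.89, and its difference without background correction is not given here. Mff, which recruits the fission protein Drp1 to mitochondria, differed by 0.36 ± 0.17 and Hspd1, a chaperone of the matrix, by 0.30 ± 0.18. Of 6 other sirtuins, 4 were measured, with a median of -0.040: Sirt5, a deacylase of the mitochondrial matrix, differed by 0.21 ± 0.22, Sirt2, a mostly cytosolic deacetylase, by -0.16 ± 0.19, and Sirt3, the main mitochondrial deacetylase, by -0.069 ± 0.19.

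**Figure D4:**
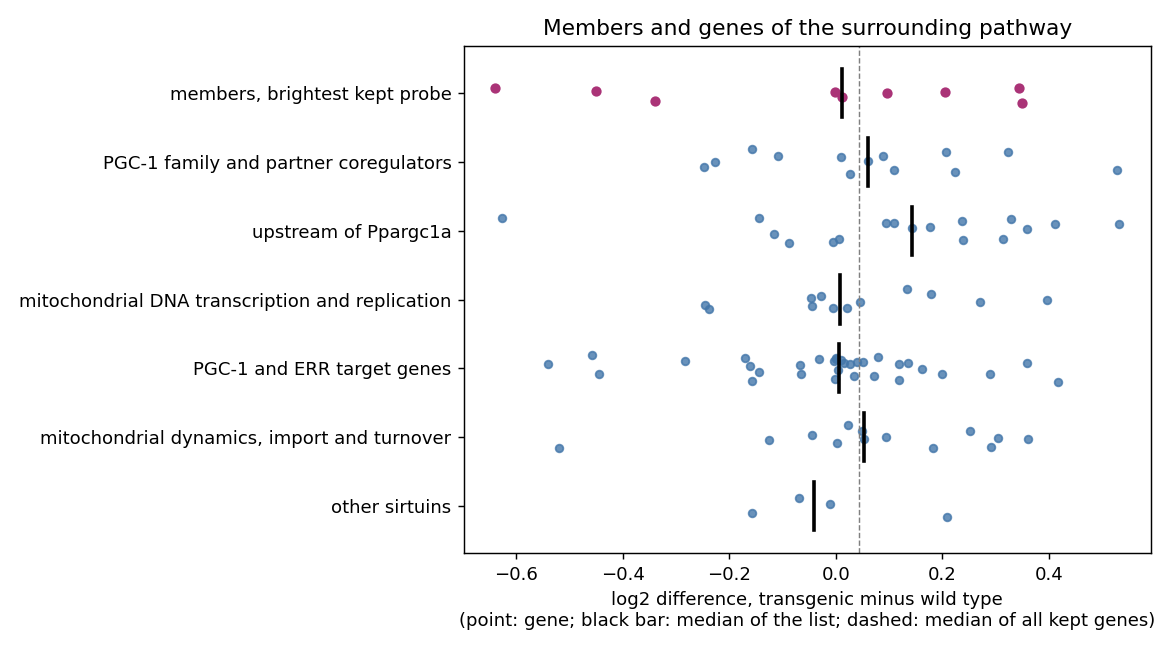
Log2 difference between transgenic and wild-type muscle (horizontal axis) of each gene (points) in 6 lists of the surrounding pathway (blue) and of the 9 members with a tested probe (purple, brightest probe of each gene). Black bars are list medians, which lie between -0.040 and 0.14, and the dashed line is the median of all measured genes, 0.044.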

How the data were processed

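Quadriceps RNA was read on 6 arrays, 3 per group. Per the file headers, the deposited table of signals gives an intensity and a detection p-value for every probe; the values of the latter rise with signal and were read as 1 minus p. The submitters' processing notes name BeadStudio 2.3.41 as the software of these deposited values. The other deposited table is on the log2 scale: each value is log2 of the signal less an array constant and a constant of its probe (array medians -0.0235 to 0.0136).

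Deposited signals stood 0 to 21 rows away from their probe identifiers. For 46611 of 46632 probes they were returned by the differences between arrays that both tables share (tolerance 0.002, largest remainder 2.07e-06). Detection values, which the match did not use, then followed the signals (Spearman's rho 0.99996 or more, below a detection value of 1). The other 21 probes were not used. The platform annotation gave 1 symbol to 29976 probes, several to 10 and none to 16646.

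Signals were processed with neqc of limma 3.58.1 in R 4.3.3 (normexp, offset 16, quantile normalisation, log2), and figures were drawn in Python 3.11.15. Groups were compared with lmFit and eBayes, two-sided, and Benjamini-Hochberg adjusted over 14420 probes, with a threshold of 0.05. The fit was tested on simulated data. Arrays of 1 group were averaged where probes of the same gene gave r under 0.1. Differences carry standard errors. The labels do not say whether arrays hold different mice, so the p-values describe the spread between these samples, which may be technical. Alternatives were other scalings, filters and variance settings, 6 separate arrays, the replicate number as a block and single arrays left out.

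The members, lists and averaging were chosen with earlier results of these data known. Genes named from a list are up to 3 with the smallest p, each read by its brightest measured probe, and marker genes whose level moves with a member. All 4 measured general adipocyte markers are also named.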

Additional observations from a re-analysis of the deposited data

How the results depend on the processing

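No member probe passed the threshold in any of the 16 alternatives. Of 176 recomputed member differences, 163 kept their sign and 13 turned. Adding the replicate block, changing the detection filter or letting the variance follow intensity leaves the size of a difference unchanged. Signs under those settings therefore repeat those of other settings and do not show stability. Esrra turned to -0.050 under median centring. The brighter Nrf1 probe turned to 0.027 with 6 separate arrays, both with and without the replicate block, and to 0.00041 when background was not corrected. When single arrays were left out, Ppargc1b ran from -0.43 to 0.20, Esrra from -0.046 to 0.21, the brighter Nrf1 probe from -0.024 to 0.10, Gabpa ILMN_1252392 from -0.0044 to 0.26 and Sirt1 from -0.28 to 0.27. The cause of these turns was not tested.

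Over all probes, limma called 1 (0 higher, 1 lower). It called 54 with 6 separate arrays (20 higher, 34 lower), 15 with 6 separate arrays and the replicate block, and 1 with averaged samples and that block. An offset of 50 gave 9 calls. There were 8 calls on uncorrected signals, 3 after median centring, 7 on the log2 table of the authors, 10 when the variance followed intensity and 1 when undetected probes stayed in. Asking for detection on every array gave 0, since this drops Ucp1. Leaving out single arrays gave 1 to 9 calls, and transgenic replicate 3 was the array behind the 9. Deviations of same-numbered arrays correlated at 0.000456, 0.0232 and 0.0616. No pairing by replicate number was seen, but 2 samples per group cannot exclude it. The block changed no member call. Of 102 recomputed list medians, 88 moved by less than 1 SD of the samples' own medians of that list (0.026 to 0.10). Adding the block, the intensity trend or undetected probes could not move them. Only the median of the genes upstream of Ppargc1a stayed above 0 throughout, while the other 5 lists had medians on both sides of 0. The partner coregulators and mitochondrial dynamics fell below 0 with median centring alone, which lowered the median of all tested probes to -0.059. Where 1 sample is left in a group, it is assumed to vary like the others. Among the members, the probes near background, those of Gabpa and Nrip1 and the dimmer one of Nrf1, are limited by their signal. The fold of Nrip1 over wild-type arrays raised to their lowest detected probe ran from 1.06 to 1.92 when single arrays were left out. This alternative was chosen after seeing the data.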
